A study of Mus musculus with 9 samples.

Results

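The input transcriptome described here is the RNA that LPS-treated RAW264.7 macrophages held before any immunoprecipitation (IP). This input was taken as the counts of the 3 libraries named Input, of 9 in the series, over every gene with a symbol except Lars2, so that 20466 of 20467 genes entered. RAW264.7 is a mouse macrophage line transformed with Abelson murine leukemia virus, and it is grown as an established line rather than taken from separate animals. All 3 libraries came from cells given lipopolysaccharide (LPS, an outer membrane component of Gram-negative bacteria) at 100 ng/ml for 2 h, and the RNA was isolated from the lysate before any IP. The other libraries of the study, 3 from precipitates with antibodies to the RNA-binding protein Roquin and 3 from beads without antibody, were made from lysates of the same treatment. No library came from cells without LPS, so no level given here can be read as an induction. The series' design text calls the replicates biological, and nothing says how far apart the 3 cultures were.

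LPS is bound by the surface protein CD14 and handed to the receptor TLR4 with its partner MD-2. The receptor signals through the adaptors MyD88 and TRIF to kinases that release the transcription factor NF-kappaB from its inhibitors and activate MAP kinases. NF-kappaB then drives genes for secreted signals such as tumor necrosis factor (TNF) and chemokines, and also genes for its own inhibitors. Many of these mRNAs are short-lived and are removed by RNA-binding proteins that recruit decay enzymes.

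Over genes with a symbol, the 3 libraries held 2122288, 2055795 and 1799390 reads in Input 1, Input 2 and Input 3. The gene of the leucyl-tRNA synthetase of mitochondria, Lars2, took 39.1%, 32.5% and 41.0% of them and was left out. The remaining 1291995, 1388141 and 1061343 reads were the base of all levels, given as counts per 1000000 of these reads (CPM). Levels of different genes are compared only as CPM per kilobase of exon (CPM per kb). Because 3 counts stood for 2.32, 2.16 and 2.83 CPM, a gene with a count of 0 may have had a level up to those values. Errors are SDs over the 3 libraries (n = 3). Counting errors take reads as independent, which reads amplified by PCR are not.

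The libraries stood apart in measurable ways. Input 1 was low for short genes and Input 2 was high for them. In the shortest 10% of genes, with 312 to 1359 bp of exon, the median gene of Input 1 lay at -0.45 on the log2 scale against the mean of the other libraries, while that of Input 2 lay at 0.46 and that of Input 3 at -0.11. In the longest 10%, with a median of 8768 bp, the medians were 0.34, -0.36 and -0.05. Across genes, which are not independent replicates, Spearman's rho between exonic length and the library's deviation was 0.26 in Input 1, -0.32 in Input 2 and 0.01 in Input 3. Ribosomal protein genes, which are mostly short, held 2.84%, 3.94% and 2.54% of the reads. On the log2(CPM + 1) scale, Pearson's r over 8724 genes was 0.909 between Input 2 and Input 3, 0.837 between Input 1 and Input 2, and 0.825 between Input 1 and Input 3. Where 1 library moved a gene's mean by more than 1.5 times, the mean without it is given.

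**Figure D1:**
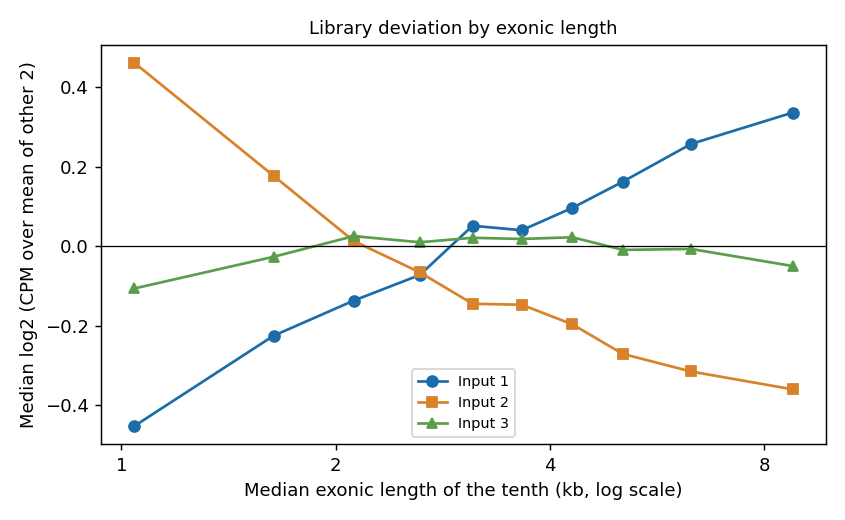
Median log2 deviation of a gene's CPM in each input library from the mean of the other 2 (vertical axis), for 10 equal bins of genes ordered by exonic length (horizontal axis, kb, log scale). Input 1 went from -0.45 in the shortest 10% to 0.34 in the longest and Input 2 from 0.46 to -0.36, while Input 3 lay near 0.

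Input 3 held the highest levels of Tnf and Nfkbid. Tnf had 4521, 4135 and 9278 counts and Nfkbid had 316, 79 and 1451 counts. These 2 genes were among the 3 with the most reads in the Roquin precipitates, and of the 10 genes with the most reads there, 6 were highest in Input 3 among the input libraries, as were 2877 of all 8724 genes with a mean of at least 10 counts. Of the 226 genes at least 2-fold higher in Input 3 than in both other input libraries, 7 had at least 10 times the level in Roquin IP that they had in control IP, against 33 of the 8724. Without Input 3 the mean of Tnf went from 3095 to 1976 CPM per kb and that of Nfkbid from 249 to 67.5. Whether precipitated RNA had any part in the levels of Input 3 was not tested.

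In all, 8993 genes had at least 3 counts in each of the 3 libraries and are called expressed. A further 2950 had counts but fewer, and 8523 had 0 counts in all 3. Of 8918 expressed genes with an exonic length, the median level was 14.9 CPM per kb. Most lay in a narrow middle: 2421 genes had 3 to 10 CPM per kb, 3160 had 10 to 30, and 1855 had 30 to 100. Only 178 had 300 to 1000 CPM per kb, and 24 had 1000 or more. Reads were spread over many genes, with 5.39% ± 0.478 of the reads in the 10 genes with the most, 17.7% in the top 100 and 53.1% in the top 1000.

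Genes of secreted inflammatory signals were among the highest of the transcriptome. In such bulk RNA, a low level in every cell and a high level in few cells cannot be told apart, nor can fewer cells of a type and less RNA per cell. The 10 highest genes per kb were Ccl3, Ccl4, Actb, Hist2h2bb, Eef1a1, S100a4, Tnf, Rpl4, Gm20594 and Pkm. They thus held 2 chemokines and TNF beside cytoskeletal actin (Actb), the translation elongation factor 1 alpha (Eef1a1), a ribosomal protein (Rpl4), pyruvate kinase (Pkm) and a calcium-binding protein (S100a4). Actb had 3695, 4475 and 5187 CPM per kb in Input 1, 2 and 3, and Eef1a1 had 4507, 4255 and 3791. The exons of Hist2h2bb lie wholly, and those of S100a4 by 60.6%, within exons of other annotated genes, so their levels are uncertain, and Hist2h2bb went from a mean of 4285 to 2838 CPM per kb without Input 2. Gapdh, a common reference gene that encodes glyceraldehyde-3-phosphate dehydrogenase, had 177, 299 and 125 counts, or 105 ± 34.6 CPM per kb. That was below Actb and below the glycolytic genes Pkm, Ldha, Aldoa, Tpi1 and Pgk1 in each library. The treatment of reads shared with near-identical sequences was not given. The order is thus one of counted reads, and whether Gapdh mRNA was low cannot be told.

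Genes were grouped by role into 21 lists with 718 genes in the table, of which 438 were expressed. A gene may stand in more than 1 list. Of the 438, 84 lay in the top 10% of expressed genes per kb, and the median over the lists was 24.4 CPM per kb against 14.9 for all expressed genes. Chemokines had the highest list median, 288 CPM per kb, followed by macrophage-defining genes at 141 and glycolysis at 56.1. Apart from the 4 lists of markers of other cell types, the lowest medians were 7.36 CPM per kb for cytokine receptors, 10.8 for chemoattractant, nucleotide and prostanoid receptors and 12.04 for pattern recognition receptors, while that of phagocytic, adhesion and inhibitory receptors was 31.8. The most and least even members named below are those with the smallest and largest CV (SD over mean) among members with a mean of at least 10 counts. For some of the most even, such as Naip5, Xrn1, Pias1, Mx2 and H2-D1, the CV lay below that of counting alone. A stable level cannot be read from such a CV. For others, such as Il1b, Ccl22 and Calcrl, it lay above. The lists were chosen for their roles with these data known, so their medians describe them and are not tested.

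**Figure D2:**
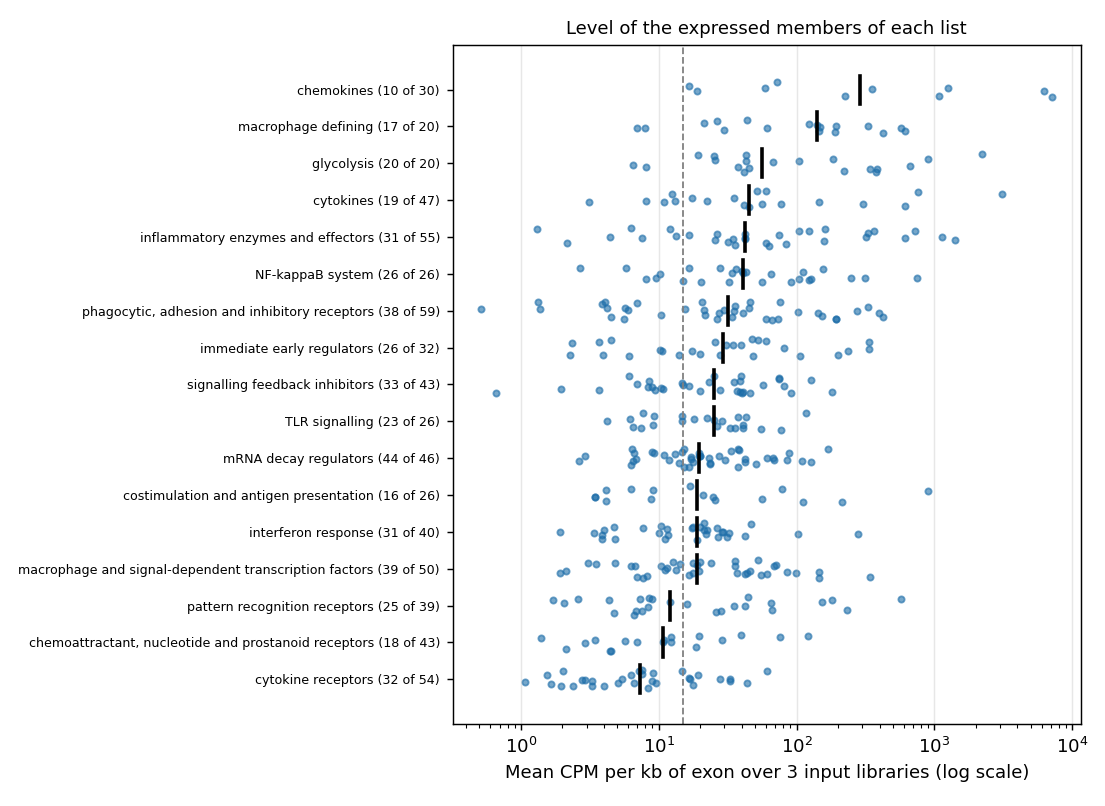
Mean level of each expressed member (points) of 17 lists of genes by role, in CPM per kb of exon over 3 input libraries (horizontal axis, log scale), with the list median as a black bar and the median of all expressed genes (14.9) as a dashed line. The numbers beside each name are members expressed of members in the table, and the chemokine median of 288 lies farthest to the right and the cytokine receptor median of 7.36 farthest to the left.

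Of 47 cytokines and growth factors, 19 were expressed, 12 had 0 counts in all 3 libraries and 16 lay between. Tnf was the highest, with 2135, 1818 and 5334 CPM per kb in Input 1, 2 and 3. Its mean was 3095 ± 1945 CPM per kb (SD, n = 3), and 1976 without Input 3, which alone stood 2-fold above both others. Mif, which encodes a cytokine that cells keep in store, had 616, 931 and 739.6 CPM per kb. Il1b, which encodes the IL-1 beta precursor, had 477, 685 and 660.1 CPM per kb and the smallest spread of the list, with a CV of 18.7%. The Tnf level stood above those of Mif and Il1b in every library.

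Pdgfb, the B chain of platelet-derived growth factor, had 269, 259 and 385 CPM per kb. Tnfsf9, the ligand of the costimulatory receptor 4-1BB, had 171, 173 and 96.4. Tgfb1, which encodes the anti-inflammatory cytokine TGF-beta 1, had 53.7, 73.2 and 106. Among expressed genes these 3 lay at the 97.8th, 94.9th and 89.7th percentiles. Il1a was low in Input 1, with 21.96, 88.0 and 71.1 CPM per kb. Lif and Csf3, which encode leukemia inhibitory factor and granulocyte colony-stimulating factor, were both highest in Input 3. Lif had 31.1, 28.1 and 76.1 CPM per kb, with a mean of 45.1 and of 29.6 without Input 3, and Csf3 had 10.96, 30.1 and 65.3, with a mean of 35.5 and of 20.5 without Input 3. The lymphotoxin genes Ltb and Lta differed in level, with means of 51.7 ± 14.3 and 10.9 ± 10.1 CPM per kb. Lta had the largest spread of the list, with 22.4, 6.77 and 3.41 CPM per kb, and its mean without Input 1 was 5.09. The remaining expressed members, Grn, Ebi3, Vegfb, Il18, Osm, Vegfa, Il1rn and Il16, had means from 3.10 (Il16) to 56.2 (Grn) CPM per kb.

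Several cytokines linked with LPS were at or near the counting floor. Il6 had 0, 9 and 5 counts in Input 1, 2 and 3. Il10 had 0, 2 and 1 counts, Ifnb1 1, 15 and 5 and Csf2 8, 3 and 1. None of these 4 genes had 3 counts in every library, so no level is given. Both subunits of IL-12 (Il12a and Il12b), Ifng, Inhba and Hbegf had no count in any library. Il23a had 0, 16 and 0 counts and Il27 0, 14 and 11, so that Input 1, which held counts for the fewest genes (10203, against 11274 in Input 2 and 10720 in Input 3), had none of either.

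Of 30 chemokines, 10 were expressed and 14 had 0 counts in all 3 libraries, so the group held both the highest genes of the transcriptome and many at 0. Ccl3 and Ccl4, which encode the macrophage inflammatory proteins 1 alpha and 1 beta that attract monocytes and T cells, ranked highest of all expressed genes per kb. Ccl3 had 7336, 9615 and 4593 CPM per kb in Input 1, 2 and 3, and Ccl4 had 2788, 7119.8 and 8857. Their ranges overlapped, and which of them was higher differed between libraries: Ccl3 in Input 1 and Input 2, Ccl4 in Input 3. With 766 and 660 bp of exon, both belong to the shortest 10% of genes, in which Input 1 was low and Input 2 high, and the part of this in their spread was not tested. Cxcl10, a ligand of the receptor CXCR3 of T cells, had 1089, 1836 and 873 CPM per kb. Cxcl2, which attracts neutrophils, had 503, 1417 and 1334. Cxcl2 was low in Input 1 and close to equal in the other libraries.

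Ccl9 had 358, 438 and 264 CPM per kb. Ccl5 had 163, 376 and 131, with a mean of 223 and of 147 without Input 2. Both encode attractants of leukocytes. Cxcl16 had a mean of 72.5 ± 40.8 CPM per kb and Ccl22, an attractant of regulatory T cells, one of 59.3 ± 9.16. Ccl22 had the smallest spread, with a CV of 15.4%. Cxcl11 had the largest, with 5.92, 45.6 and 5.71 CPM per kb: Input 2 alone was high, and the mean went from 19.1 to 5.81 without it. Cxcl3, a near relative of Cxcl2, had 2.29, 17.7 and 29.7 CPM per kb, with a mean of 16.6 and of 10.0 without Input 3. The monocyte attractant Ccl2 had 0, 4 and 6 counts and Cxcl1 0, 1 and 0, while Cxcl9, Ccl7, Ccl12, Ccl17 and Ccl24 had none.

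**Figure D3:**
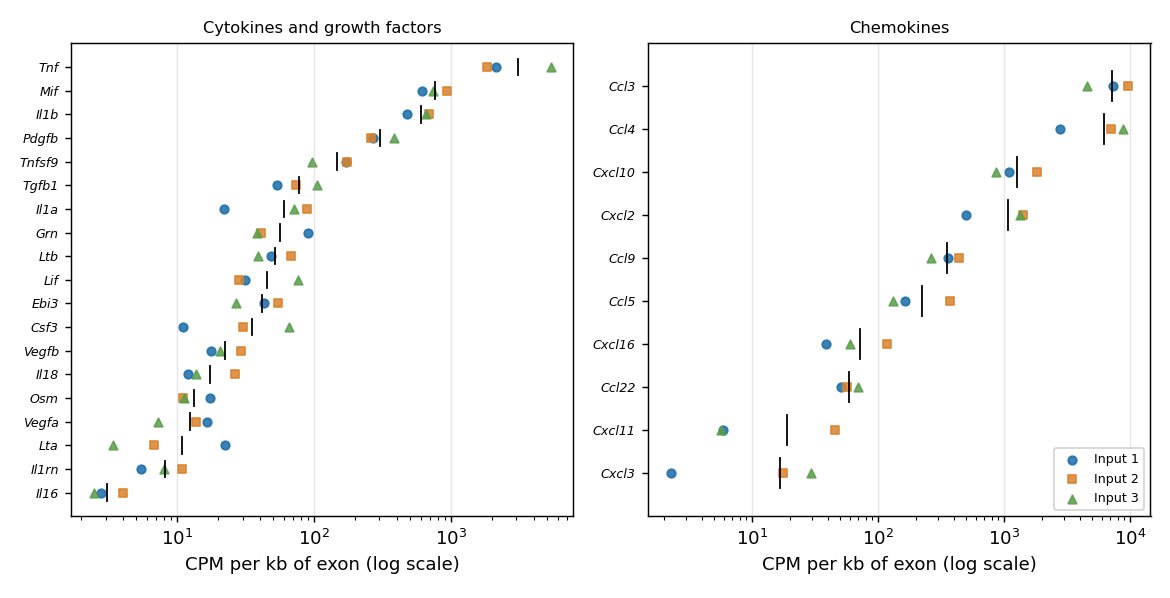
Level of each expressed cytokine or growth factor (left) and chemokine (right) in CPM per kb of exon (horizontal axes, log scale), with Input 1 as circles, Input 2 as squares, Input 3 as triangles and the mean as a black bar. Tnf stands apart from the other cytokines with its Input 3 value of 5334, and the chemokines range from a mean of 16.6 (Cxcl3) to 7181 (Ccl3).

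Promoters of some secreted signals and NF-kappaB genes are shown, because NF-kappaB binds letters that can be read in them. The printed set holds genes with a match and, of those without, Tnf only. The RefSeq promoter table (build GRCm38.p6, 250 bases before to 50 after the start) was searched on both strands for the kappaB letters GGGNN directly followed by TTTCC. A match was found in 6 of 21 expressed cytokine and chemokine genes with a promoter in the table (28.6%): Ccl9, Cxcl2, Cxcl3, Il16, Il1rn and Ltb. It was found in 4 of 34 that were not expressed (11.8%) and in 6 of 22 genes of the NF-kappaB system (27.3%): Cyld, Nfkb2, Nfkbia, Rel, Tnfaip3 and Traf2. The share was 2.09% over all 7290 expressed genes with a promoter and 1.63% over all 32851 promoters of the table. The search used these letters alone, and other kappaB spellings and more distant elements lie outside it. Ccl3, Cxcl10, Mif, Il1b, Nfkbid and Traf1 held no match and are not printed. Their means ran from 156 (Traf1) to 7181 (Ccl3) CPM per kb, against 353 for Ccl9, which is printed. Below, Cxcl2 (chr5:90903649-90903948, plus strand), Ccl9 (chr11:83578587-83578886, minus strand) and Nfkbia (chr12:55492598-55492897, minus strand) hold matches, in capitals, and Tnf (chr17:35201958-35202257, minus strand) holds none.
Cxcl2: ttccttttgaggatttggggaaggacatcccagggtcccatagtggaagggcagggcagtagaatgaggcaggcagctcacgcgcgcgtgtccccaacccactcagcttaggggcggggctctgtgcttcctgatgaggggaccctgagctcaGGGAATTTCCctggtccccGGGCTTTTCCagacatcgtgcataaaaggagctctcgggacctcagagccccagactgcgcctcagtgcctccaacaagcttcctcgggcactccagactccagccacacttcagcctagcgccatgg
Ccl9: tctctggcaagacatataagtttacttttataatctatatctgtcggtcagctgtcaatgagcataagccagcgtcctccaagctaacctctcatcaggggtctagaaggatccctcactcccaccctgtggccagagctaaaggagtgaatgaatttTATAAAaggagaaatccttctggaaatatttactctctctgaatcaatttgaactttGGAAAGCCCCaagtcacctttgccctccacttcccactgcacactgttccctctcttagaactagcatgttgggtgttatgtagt
Nfkbia: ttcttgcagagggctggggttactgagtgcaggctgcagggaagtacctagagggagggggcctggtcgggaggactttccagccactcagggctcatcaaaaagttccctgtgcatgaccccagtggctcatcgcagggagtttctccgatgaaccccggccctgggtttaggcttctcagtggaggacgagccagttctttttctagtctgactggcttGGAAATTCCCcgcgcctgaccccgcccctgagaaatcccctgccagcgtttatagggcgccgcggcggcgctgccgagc
Tnf: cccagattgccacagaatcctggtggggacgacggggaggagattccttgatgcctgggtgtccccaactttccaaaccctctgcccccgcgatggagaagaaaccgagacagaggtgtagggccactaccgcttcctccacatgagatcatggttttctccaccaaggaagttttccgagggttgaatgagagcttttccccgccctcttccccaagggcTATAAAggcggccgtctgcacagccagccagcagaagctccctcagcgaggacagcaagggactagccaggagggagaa
Each is printed 5′ to 3′ on the strand of its gene, and a TATA box spelled TATAAA is also in capitals where it lies on that strand. Cxcl2 had 2 matches, starting 97 and 78 bases before the start of transcription. The match of Ccl9 began 35 bases before it and that of Nfkbia 29, both read on the other strand. Tnf held TATAAA at 29 bases before the start, and Ccl9 held it at 92. The letters TATAAA, on either strand, were present in 8 of 21 expressed (38.1%) and 13 of 34 other cytokine and chemokine promoters (38.2%), against 8.52% of all expressed genes. TGANTCA, the AP-1 letters, were present in 6 of 21 (28.6%) and 7 of 34 (20.6%), against 5.71% of all expressed genes.

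Of 39 pattern recognition receptors and their partners, 25 were expressed and 8 had no count. Cd14, the LPS co-receptor, was the highest, with 556, 654 and 515 CPM per kb in Input 1, 2 and 3 and a mean of 575 ± 71.5. Tlr4, the LPS receptor itself, had 46, 69 and 29 counts and 6.51, 9.09 and 5.00 CPM per kb. In each library Cd14 thus stood far above Tlr4, which lay at the 25.4th percentile of expressed genes. Nlrp3, the sensor of the NLRP3 inflammasome, had 222, 199 and 276 CPM per kb. Tlr2, the receptor for bacterial lipoproteins, had 303, 123 and 115. Input 1 alone was high for Tlr2, and its mean went from 180.4 to 119 without that library.

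Clec4e, which encodes the C-type lectin Mincle, had 137, 242 and 76.7 CPM per kb. Ly86, the partner of the TLR4-like protein CD180, had 60.7, 97.2 and 39.9. Both were highest in Input 2. The cytosolic RNA sensors Ddx58 (RIG-I) and Ifih1 (MDA5) were highest in Input 1, with 47.8, 15.2 and 15.1 CPM per kb for Ddx58 and 53.5, 36.5 and 16.4 for Ifih1, and the mean of Ddx58 without Input 1 was 15.2 instead of 26.0. Naip5, a flagellin sensor, was low, with 14, 14 and 12 counts and a mean of 2.06 ± 0.118 CPM per kb. Its CV of 5.73%, the smallest of the list, lay below the 27.5% that counting alone gives. Nlrp1b, under the floor in Input 1, had the largest CV among members with a mean of at least 10 counts, with 2, 19 and 17 counts. Tlr5, Tlr8, Tlr11, Tlr12 and Nod1 had no count. Pycard, which encodes the adaptor ASC that links NLRP3 to caspase-1, had 0, 0 and 1 counts.

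The steps from TLR4 to NF-kappaB differed in level, and some were low, such as Tlr4 itself at the 25.4th percentile of expressed genes. Of 26 genes of TLR signalling 23 were expressed, with a median of 25.3 CPM per kb, at the 66.5th percentile. Peli1, an E3 ubiquitin ligase, had 167, 113 and 71.2 CPM per kb, and Tab2, which links ubiquitin chains to the kinase TAK1, had 106, 50.5 and 76.8. Irak2, a kinase of the MyD88 complex, had 77.7, 48.7 and 38.3 CPM per kb. All 3 were highest in Input 1. The adaptor genes Ticam1 (TRIF) and Myd88 had means of 41.0 ± 2.02 and 37.4 ± 18 CPM per kb. Ticam1 had a CV of 4.92%, below the 8.13% that counting alone gives, while Myd88 was highest in Input 3, with 28.4, 25.7 and 58.2. Map3k8, the kinase TPL2 that activates the MAP kinases ERK1 and ERK2, had 9.04, 8.97 and 9.17 CPM per kb and the smallest CV of the list, 1.10%. Irak3, an inhibitor of the pathway, had the largest, 53.4%.

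All 26 genes of the NF-kappaB system were expressed, with a median of 40.6 CPM per kb, and 9 lay in the top 10%. The highest means of the list were those of the I-kappaB genes Nfkbia, Nfkbiz and Nfkbid. Not all genes of this family were high, and Nfkbie lay below the list median with a mean of 27.8 CPM per kb. Nfkbia, which encodes I-kappaB-alpha, the inhibitor that holds NF-kappaB in the cytoplasm, had 806, 862 and 571 CPM per kb in Input 1, 2 and 3. Nfkbiz, a nuclear I-kappaB protein, had 351, 283 and 308. Both were above every subunit gene in each library. Nfkbid, which encodes the nuclear protein I-kappaB-NS, had 109.6, 25.5 and 613 CPM per kb and the largest CV of the list, 127%. Its level in Input 3 was 24.0 times that in Input 2, and its mean went from 249 to 67.5 CPM per kb without Input 3.

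Among the subunits, Nfkb1 (p105/p50) had 97.4, 67.3 and 111 CPM per kb and Rel (c-Rel) had 78.6, 38.1 and 52.8. Nfkb2 (p100/p52) had a mean of 40.2 ± 12.4 CPM per kb, Rela (p65) one of 32.4 ± 5.75 and Relb one of 20.4 ± 5.97. Nfkb1 exceeded Nfkb2, Rela and Relb in every library, while the ranges of Nfkb2 and Rela overlapped. Of the kinases that act on the inhibitors, Chuk (IKK-alpha) had a mean of 36.5 ± 4.36 CPM per kb, Ikbkb (IKK-beta) one of 15.0 ± 1.495, the regulatory subunit gene Ikbkg one of 5.76 ± 1.30 and Map3k14 (NIK) one of 2.69 ± 0.828. Chuk was above Ikbkb and Ikbkb above Ikbkg in each library. Negative regulators that edit ubiquitin or bind it lay higher: Tnfaip3 (A20) had 146, 113 and 113 CPM per kb, Tnip1 had 91.0, 101 and 143 and Tnip3 had 90.7, 157 and 67.7. Traf1 and Birc3, an adaptor and a ubiquitin ligase of TNF receptor signalling, had means of 156 ± 26.5 and 127 ± 47.1. The most even member was Fam105b, which encodes the deubiquitinase OTULIN, with 39.97, 38.7 and 44.2 CPM per kb. The mean of Nfkbie, a further cytoplasmic inhibitor, was 27.8 CPM per kb and 18.3 without Input 1.

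**Figure D4:**
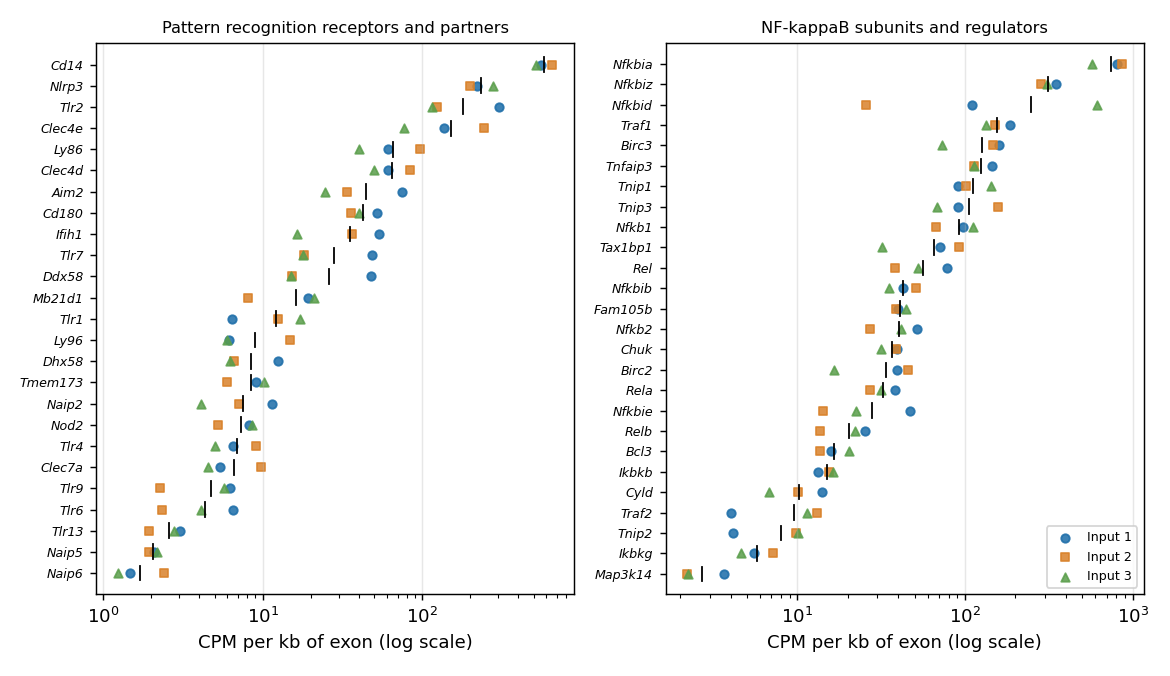
Level of each expressed pattern recognition receptor or partner (left) and each gene of the NF-kappaB system (right) in CPM per kb of exon (horizontal axes, log scale), with Input 1 as circles, Input 2 as squares, Input 3 as triangles and the mean as a black bar. Cd14 leads the left panel at a mean of 575 with Tlr4 at 6.87, and Nfkbia leads the right at 746, where Nfkbid spans 25.5 to 613.

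Immediate early regulators are transcribed within minutes of a signal without new protein synthesis, and 26 of 32 were expressed. Ier3, a stress-induced regulator of survival, had 171, 414 and 423 CPM per kb. Junb and Jund, which encode subunits of AP-1, had 289, 299 and 410.4 for Junb and 129, 85.9 and 105 for Jund, the latter with 52.6% of its exons shared with other genes. Atf3, a repressor of LPS-induced cytokine genes, had 223, 414 and 73.0 CPM per kb. Input 2 was high and Input 3 low for Atf3, and its mean without Input 2 was 148 instead of 237. Btg1, an antiproliferative factor, had 257, 202 and 144 CPM per kb. Fos had 1, 6 and 4 counts and Fosb 2, 2 and 2, so these partners of the JUN proteins were at the floor 2 h after LPS. Btg2 was the most even member, with a CV of 5.77%. Mafk, the most uneven with 6.42, 5.97 and 19.5 CPM per kb, had a mean of 10.6 and of 6.19 without Input 3.

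Of 50 macrophage and signal-dependent transcription factors, 39 were expressed. Atf4, the factor of the integrated stress response, was highest, with 354, 410.1 and 262 CPM per kb. Sfpi1, the gene of PU.1 that sets macrophage identity, had 125, 108 and 202, and Rbpj, the factor of Notch signalling, had 151, 147 and 141. Rbpj was the most even, with a CV of 3.53%, and Sfpi1 was highest in Input 3. Ets2 had a mean of 98.5 ± 24.8 CPM per kb, and Irf5, which acts downstream of MyD88, one of 85.2 ± 15.6. Tfeb, a regulator of lysosome genes, had the largest spread, with 37, 4 and 6 counts, and its mean went from 3.09 to 1.06 CPM per kb without Input 1. Maf, Pparg, Rxra, Batf, Batf3 and Hes1 had no count.

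Cytokine receptors were many and low: 32 of 54 were expressed and none lay in the top 10%. Csf1r, the receptor of macrophage colony-stimulating factor and the highest of the list, had 80.2, 38.5 and 65.0 CPM per kb. Il2rg, the common gamma chain, had a mean of 43.5 ± 6.46, with 43.6% of its exons shared with other genes. Ifngr2, a chain of the receptor for interferon gamma, had a mean of 33.1 ± 6.15 CPM per kb, and Il10ra, a chain of the receptor for the anti-inflammatory IL-10, one of 33.1 ± 9.14. The ranges of the 2 genes overlapped. Bmpr1a, a receptor of bone morphogenetic proteins, had a mean of 27.8 ± 5.73. The second TNF receptor gene, Tnfrsf1b, was the most even, with 7.10, 6.23 and 8.14 CPM per kb. Tnf thus stood far above this receptor gene per kb in each library. Il15ra was the most uneven, with 34, 4 and 6 counts, and its mean of 5.07 CPM per kb became 1.86 without Input 1. Il1r1, Il7r, Il18r1, Osmr and Lifr had no count, so that Lif was expressed and its specific receptor chain was at 0.

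Of 43 chemoattractant, nucleotide and prostanoid receptors, 18 were expressed. Gpr84, a receptor for medium-chain fatty acids, had 87.9, 111 and 162 CPM per kb, with 39.5% of its exons shared. Calcrl, the calcitonin receptor-like receptor, had 62.9, 83.7 and 82.8, the most even of the list. The complement receptors C5ar1 and C3ar1 had means of 39.6 ± 6.47 and 28.9 ± 13.1 CPM per kb, and P2ry6, a receptor for UDP, one of 19.7 ± 9.57. Receptors of chemokines that led the transcriptome were low: Ccr1, a receptor of Ccl3, had 0, 2 and 0 counts, and Cxcr2, the receptor of Cxcl2, had none. Cxcr3, the receptor of Cxcl10, had 24, 1 and 4 counts.

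Phagocytic, adhesion and inhibitory receptors numbered 38 expressed of 59. The adaptors Tyrobp (DAP12) and Fcer1g, which carry the signal of activating receptors, had 273, 692 and 297 CPM per kb for Tyrobp and 226, 491 and 279.6 for Fcer1g, both highest in Input 2. Lilrb4, an inhibitory receptor, had a mean of 397 ± 218, but 93.3% of its exons are shared with other annotated genes. Cd68, a lysosomal glycoprotein of macrophages, was even, with 186, 211 and 185 CPM per kb. Itga4, the integrin alpha-4 chain, had 461, 158 and 206, and its mean of 275 became 182 without Input 1. Fcgr2b, the inhibitory Fc receptor, had 69, 11 and 4 counts, with a mean of 5.70 CPM per kb that became 1.53 without Input 1. Mertk, Marco, Mrc1, Timd4 and Cd5l, which mark resident or scavenging macrophages, had no count. Scavenger receptor genes were not all absent: Msr1, Cd36, Scarb1 and Scarb2 had means of 40.6, 36.0, 26.3 and 4.47 CPM per kb. Stab1 and Olr1 did not have 3 counts in every library.

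Antigen presentation was divided by class. B2m, the light chain of MHC class I, had 799, 1375 and 546 CPM per kb, and the class I heavy chain genes H2-D1 and H2-K1 had means of 78.0 ± 2.86 and 56.4 ± 5.75. These heavy chain genes are close relatives, so reads may be split between them, and H2-D1 had the smallest CV of the list, 3.67%. The class II genes H2-Aa, H2-Ab1 and H2-Eb1 and their regulator Ciita had no count in any library, although Cd74, the class II invariant chain, had 118, 124 and 92.5 CPM per kb. Cd83, a marker of activated antigen-presenting cells, had 205, 260.3 and 178. Cd274, which encodes PD-L1, had 37, 18 and 4 counts, and its mean went from 4.18 to 2.31 CPM per kb without Input 1. Cd86 had 0, 2 and 0 counts.

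Of 55 inflammatory enzymes and effectors, 31 were expressed and 12 of them lay in the top 10%. Fth1 and Ftl1, the heavy and light chains of ferritin, had 1305, 1632 and 1298 CPM per kb for Fth1 and 484, 941 and 744 for Ftl1, whose exons are shared by 47.9%. Irg1, the enzyme that makes itaconate, had 1035, 1636 and 765 CPM per kb. Its level exceeded that of Il1b in every library, and its range overlapped those of Cxcl10 and Cxcl2. Lyz2, lysozyme, had 238, 1035 and 556, and its mean of 609.5 became 397 without Input 2. Sod1, superoxide dismutase 1, was even at a mean of 368 ± 28.1 CPM per kb. Of the prostaglandin synthases, the inducible Ptgs2 had a mean of 158 ± 30.8 CPM per kb, and Ptgs1 had 33, 6 and 9 counts, with a mean of 4.46 that became 2.23 without Input 1. Nos2, the inducible nitric oxide synthase, had 91, 51 and 52 counts and a mean of 12.1 ± 3.97 CPM per kb. Arg1, the complement genes C1qa, C1qb and C1qc, Mmp13 and Ch25h had no count.

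Regulators of mRNA decay were nearly all present, with 44 of 46 expressed and a median of 19.7 CPM per kb. Zfp36, which encodes tristetraprolin, a protein that binds AU-rich elements and brings mRNAs such as Tnf to decay, was highest, with 192, 172 and 146 CPM per kb. Zc3h12c, a relative of the endonuclease Regnase-1, had 163, 100.4 and 121. Ddx6, a helicase of translational repression and decapping, had 124, 96.4 and 109, and Khsrp and Pum2, RNA-binding proteins that speed decay, had means of 88.4 ± 21.7 and 84.8 ± 18.7 CPM per kb. Both Roquin genes were expressed: Rc3h1 had 55.3, 52.0 and 99.8 CPM per kb and Rc3h2 had 42.1, 31.9 and 40.9. Rc3h1 was above Rc3h2 in each library, and its level in Input 3 was the highest. The endonuclease gene Zc3h12a (Regnase-1), which acts on some of the same mRNAs as Roquin, had 77.0, 46.3 and 59.5 CPM per kb. Xrn1, the exonuclease that degrades decapped RNA, was the most even member, with a CV of 4.49%, and Dcp1b the most uneven, with a mean of 2.66 CPM per kb that became 1.30 without Input 1.

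Inhibitors that feed back on signalling were expressed in 33 of 43 cases. Spred1, an inhibitor of Ras and MAP kinase signalling, had 250.2, 149 and 147 CPM per kb, and Ptpn6, the phosphatase SHP-1, had 162, 108 and 115. Socs3, the inhibitor of signalling by IL-6 family receptors, had 66.4, 88.9 and 117. Spred1 and Ptpn6 were highest in Input 1 and Socs3 in Input 3. Gadd45b and the MAP kinase phosphatase gene Dusp2 had means of 80.8 ± 15.0 and 75.2 ± 37.4 CPM per kb. Rgs1, which limits G protein signalling, was the most uneven, with 23.6, 77.6 and 9.57 CPM per kb, and its mean of 36.9 became 16.6 without Input 2. Pias1 was the most even, with a CV of 4.64%. Socs1 had 0, 2 and 7 counts.

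Genes of the interferon response were expressed in 31 of 40 cases, most at middle levels, with a median of 18.9 CPM per kb. Oasl1, an inhibitor of the translation of interferon regulatory factor 7, had 285, 365 and 184 CPM per kb, and Isg15, a ubiquitin-like protein, had 113, 138 and 58.6. Bst2 (tetherin), Ifi44 and Oas1a had means of 47.1 ± 9.92, 42.3 ± 8.83 and 32.2 ± 7.68 CPM per kb. Rsad2, which encodes the antiviral enzyme viperin, was the most uneven, with 94, 50 and 6 counts in Input 1, 2 and 3, and its mean of 10.1 CPM per kb became 5.51 without Input 1. Mx2 was the most even, with a CV of 4.86%.

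Glycolysis, which activated macrophages rely on, was expressed throughout, 20 of 20 genes, with 9 in the top 10%. Pkm had 1716, 2841 and 2049 CPM per kb and Ldha, lactate dehydrogenase A, had 759, 1206 and 711. Aldoa, Tpi1 and Pgk1 had means of 671 ± 198, 382 ± 155 and 380.1 ± 161 CPM per kb. Of the 20 genes, 12 were highest in Input 2, as were 2453 of all 8724 genes with a mean of at least 10 counts. Pgam1 was the most even, with 215, 237 and 212 CPM per kb, and Aldoc the most uneven, with 27.6, 25.7 and 4.43.

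The labelled cell type was checked against markers. Of 20 genes that define macrophages 17 were expressed, with a median of 141 CPM per kb, led by Lyz2, Cd14, Tyrobp, Fcer1g and Cd68 described above. Laptm5, a lysosomal protein of leukocytes, was the most even, with 142, 145 and 159 CPM per kb. Of the others, Mertk had no count and Fcgr3 had 34, 7 and 1 counts, under the floor in Input 3. The summed level of this list was 4938, 6120 and 4266 CPM in Input 1, 2 and 3. T and NK cell markers summed to 102, 80.0 and 82.0 CPM, with 3 of 21 expressed and Cd3d, Cd3e, Cd3g, Cd4 and Cd8a at 0 counts. The 3 were Cd247, Foxp3 and Lck, with means of 10.6 ± 2.43, 5.22 ± 1.34 and 3.19 ± 2.12 CPM per kb. Exons of Cd247 are shared by 68.5%, with Pou2f1 on the other strand and a further gene. Those of Foxp3 are shared by 23.6%, with Ccdc22 among others. Reads in the shared parts cannot be told from those of these neighbours, and how many reads lay there is not known. The mean of Lck was 7.38 CPM and 4.59 CPM without Input 2. Cd28, under the floor in Input 3, had 27, 4 and 1 counts.

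B cell markers summed to 48.8, 5.04 and 8.48 CPM, and Ms4a1 and Pax5 had no count. The single gene of that list expressed was Dntt, a gene of early lymphocytes, with 62, 4 and 9 counts, and its mean of 9.29 CPM per kb became 2.67 without Input 1. None of 22 granulocyte, mast cell and erythroid markers was expressed, and Mpo, Elane, Cpa3 and Hba-a1 had no count. Of 23 fibroblast, epithelial and endothelial markers 1 was expressed, Acta2, with a mean of 3.03 ± 1.05 CPM per kb, while Col1a1, Epcam and Cdh5 had no count. In these lists, 14 of 21 T and NK cell, 10 of 15 B cell, 17 of 22 granulocyte, mast cell and erythroid, and 18 of 23 fibroblast, epithelial and endothelial markers had 0 counts in all 3 libraries.

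How evenly the 3 libraries measured a gene was asked of 8724 genes with a mean of at least 10 counts. By a chi-square test of the 3 counts against the library totals (Benjamini-Hochberg adjusted p under 0.05), 6025 of them (69.1%) varied more than counting allows. Leaving out any library lowered the share. Without Input 1 the number was 3230 of 8644 genes (37.4%), without Input 2 4250 of 8567 (49.6%) and without Input 3 4647 of 8775 (53.0%). The test takes every read as independent and therefore calls too many. The common biological coefficient of variation from edgeR was 0.374. The median CV was 45.5% for genes with a mean of 10 to 30 counts, where counting alone gives 23.5%, and 23.0% for genes with 1000 counts or more, where counting gives 2.70%. The spread among highly counted genes exceeded counting error, and 99.2% of them passed the test.

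Of the 429 list members tested, 336 (78.3%) varied beyond counting error, against 69.1% of all genes tested. The share was 11 of 11 chemokines, 39 of 44 regulators of mRNA decay, 15 of 19 cytokines, 20 of 26 NF-kappaB genes and 17 of 29 cytokine receptors. List members lay higher than genes in general, with a median of 83.3 CPM against 49.9 over all expressed genes, and the share called rose with the count, from 53.6% at 10 to 30 counts to 91.4% at 300 to 1000. The median CV was 49.97% over chemokines, 29.0% over regulators of mRNA decay and 26.9% over the NF-kappaB system, against 31.2% over all genes tested.

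**Figure D5:**
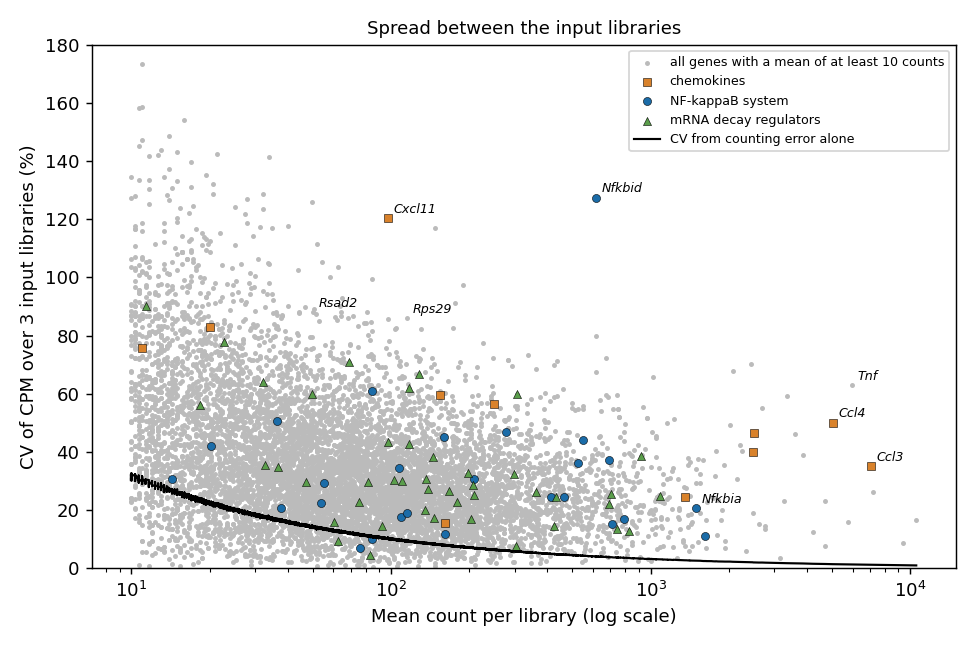
CV of CPM over the 3 input libraries (vertical axis, %) against the mean count per library (horizontal axis, log scale) for all genes with a mean of at least 10 counts (grey), chemokines (squares), the NF-kappaB system (circles) and regulators of mRNA decay (triangles), with the CV that counting alone gives as a line. Nfkbid (127%) and Cxcl11 (120%) lie high above the line, and most genes with over 100 counts lie above it.

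A coarser description counts genes for which 1 library lay at least 2-fold above or below both others. There were 2074 of 8724 such genes (23.8%), and 127 of the 429 list members. With a mean of at least 50 counts there were 640 of 5105 (12.5%). Input 1 was high for 539 and low for 748, Input 2 for 177 and 236, and Input 3 for 226 and 347, so Input 1 stood apart most often. The genes low in Input 1 had a median exonic length of 2234 bp, and those high in it 3682 bp. Among genes with a mean of at least 50 counts, the widest ratios of the highest to the lowest library were those of Rps29 (50.3), Nfkbid (24.0), Rps28 (19.8), Rpl38 (15.1), Rsad2 (12.9), Sla (9.75), Cox5b (9.13), BC003331 (9.02), Nufip1 (8.28) and Rgs1 (8.12). Rps29, Rps28 and Rpl38 encode small ribosomal proteins, have 390 to 588 bp of exon and were all lowest in Input 1. Rps29 had 4, 216 and 126 counts, Rps28 17, 361 and 66 and Rpl38 8, 130 and 36. Without Input 2, the mean of Rps28 went from 190.1 to 64.1 CPM per kb, that of Rpl38 from 82.3 to 37.0 and that of Rps29 from 237 to 156. For BC003331 the mean was 47.1 CPM, and 25.3 CPM without Input 2. Cox5b, a subunit of cytochrome c oxidase, was likewise low in Input 1, with 14, 137 and 105 counts. Sla, an adaptor that dampens antigen receptor signals, was high there, with 178, 60 and 15 counts, and its mean of 20.3 CPM per kb became 8.96 without Input 1.

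At the other end, the most even genes with a mean of at least 50 counts were Zfp191, Elk4, Ahsa2, D14Abb1e and Fam3c. Their highest library exceeded the lowest by ratios of 1.01 to 1.02. Zfp191, a zinc finger factor, had 11.7, 11.7 and 11.8 CPM per kb in Input 1, 2 and 3, and Elk4, a partner of serum response factor, had 25.7, 25.5 and 25.8. With 44 to 164 counts per library, these differences were smaller than counting error alone gives on average.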

How the data were processed

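RNA-seq was done with the TruSeq RNA kit on a HiSeq 2000 (per the labels' protocols and design text). The deposited table held, per the file headers, raw read counts per gene for 9 libraries, and the authors' own Roquin enrichment (ratio) with its p-value, which were not used here. CASAVA 1.8.2, BWA and DESeq 1.8.3 are named in the submitters' processing notes, while the genome build, annotation, strand handling and treatment of shared reads were not given in the sources used here. Reads of overlapping or near-identical genes therefore cannot be assigned with certainty.

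The counts of the 3 Input libraries were used (those of the IP libraries only to describe genes high in Input 3, as mean CPM), without Lars2 and without 7480 entries that have no symbol. CPM was computed over the remaining reads, and CPM per kb over the union of exons in a GENCODE annotation of the mouse, found for 20231 genes (18727 by symbol and 1504 by a RefSeq synonym). A gene was called expressed with at least 3 counts in every library. Variation beyond counting error was tested over 8724 genes with a mean of at least 10 counts by a chi-square test with 2 degrees of freedom, with Benjamini-Hochberg adjustment. The test was checked on simulated counts that held counting error only, apart from a set of changed genes. That check does not cover libraries that vary more than counting, as these did. Dispersions came from edgeR 4.0.16 in R 4.3.3, and tables were computed with Python 3.11.15. There is 1 group, so no contrast, no fold change between conditions and no test between groups was made. The chi-square per degree of freedom between pairs of libraries was 17.2, 14.6 and 11.98, so none was a duplicate.

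The members and lists were chosen with earlier results of these data known. Genes were named by rule: the 10 highest per kb, the 5 highest of each list, the members with the largest and smallest CV, the 10 most and 5 least variable genes, any cytokine, chemokine or NF-kappaB gene, and Tnf, Nfkbia, Cd14, Tlr4, Csf1r, Actb and Gapdh. Genes named for few or no counts were chosen after their values were seen. So were Ddx58, Ifih1, Myd88, Nos2, Ptgs2, Rc3h1, Rc3h2, Zc3h12a, Cxcr3, Msr1, Cd36, Scarb1 and Scarb2. Some genes are not reported here. Of 719 listed genes, 703 were found by symbol, 11 by an older symbol and 4 by a synonym, and Ly6g was not matched. Promoters came from the RefSeq table. Alternatives were other library scalings, other count minimums, other lengths and leaving out each library.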

Additional observations from a re-analysis of the deposited data

How the results depend on the processing

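With at least 1 or at least 10 counts in place of 3 in every library, 9636 and 7690 genes were expressed instead of 8993, and with at least 1 CPM per kb, an alternative chosen after seeing the data, 8620 were. Leaving out 1 library gave 9096 to 9527. For list members the count of 438 became 466 or 383 with those minimums and 443 to 458 without 1 library. The 6025 genes that varied beyond counting error became 5993 with TMM factors, 6000 with DESeq2 size factors, 5953 with Lars2 in the totals, 6623 of 11943 without a filter and 4038 of 5105 with a mean of at least 50 counts. Leaving out 1 library gave 3230 to 4647 genes, with 3230 of 8644 (37.4%) without Input 1. Rescaling libraries within 10 bins of exonic length, also chosen after seeing the data, gave 5815. The 2074 genes with 1 library 2-fold apart became 2070, 2079 and 1945 under TMM, DESeq2 and length rescaling, and 640 of 5105 (12.5%, against 23.8%) with a mean of at least 50 counts; the cause of the lower share was not tested. TMM and DESeq2 factors moved the levels of 171 named genes by ratios of 0.986 to 1.02, and keeping Lars2 in the totals by 0.596 to 0.660. Without Input 1, 2 or 3, the means of 14, 11 and 6 of them moved past 1.5-fold. By the longest transcript instead of the union of exons, 84 list members lay in the top 10%, the same 84. At 3 counts per gene, the depth limits statements to levels above 2.16 to 2.83 CPM. No paired analysis was possible because the input libraries form 1 group with no group to pair with.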

Other observations

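Genes of protein synthesis and folding took many reads although no list covered them, and those named here were chosen after their values were seen. Of the 10 genes with the most reads, 5 serve these tasks or ribosome assembly. Ncl, which encodes the nucleolar protein nucleolin, had 4902, 6889 and 5447 counts in Input 1, 2 and 3. Eef2, the translation elongation factor 2, had 5296, 4956 and 3869 counts and a level of 1221 ± 92.6 CPM per kb (SD, n = 3). Hsp90ab1, the constitutive cytosolic HSP90 chaperone, had 4658, 4066 and 3940 counts and 1355 ± 169 CPM per kb. The CVs over the 3 libraries were 15.7% for Ncl, 7.59% for Eef2 and 12.4% for Hsp90ab1, against 35.02% for Ccl3 and 62.8% for Tnf. Of 81 ribosomal protein genes, 45 were lowest in Input 3, 35 in Input 1 and 1 in Input 2. Of all 8724 genes tested, 2622 were lowest in Input 3, 3032 in Input 1 and 3070 in Input 2. Among the 41 ribosomal protein genes with under 1 kb of exon, 8 were at least 2-fold low in Input 1. That compares with 0 of the 40 with 1 kb or more and 748 of all 8724 genes tested.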
